A study of Homo sapiens with 2 samples.

Results

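The *PAGE* and *XAGE* genes were analyzed in colon cancer cells at the single-cell level after DNA demethylating treatment. Of the 33538 genes in the deposited tables, 10 were chosen by name, namely *PAGE1*, *PAGE2*, *PAGE2B*, *PAGE4*, *PAGE5*, *XAGE1A*, *XAGE1B*, *XAGE2*, *XAGE3*, and *XAGE5*. They were chosen with their values in these libraries known, so the values are given as a description, without a test.

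PAGE and XAGE proteins belong to the same superfamily as the GAGE proteins, small and highly charged antigens of the cancer-testis group. Cancer-testis genes are active in germ cells of the testis, some of them also in placenta, are silent in most other adult tissues, and are switched on in a part of human cancers. Many of them lie on the X chromosome, and promoter methylation is known to take part in keeping them silent in somatic cells. *PAGE4* is known for its expression in prostate, where it encodes an intrinsically disordered protein. *XAGE1A* and *XAGE1B* are copies of the *XAGE1* gene, which is known as an antigen gene in lung cancer.

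HCT116, a human colon cancer cell line, was treated with 0.5 μM of decitabine (DAC) on days 1 and 3. DAC is built into replicating DNA, where it captures DNA methyltransferases, and methylation is then lost over cell divisions. Exposure ended with new medium on day 5, and libraries were prepared from cells of day 7. Mock-treated HCT116 cells were the control. The deposited protocol text of both samples describes the DAC schedule, and the mock-treated sample was identified by its title and treatment label. A droplet-based 3′ library was made for each condition. In such a library, transcripts are captured near the poly(A) tail and every captured molecule carries a unique molecular identifier (UMI), so a UMI count is a count of molecules that does not scale with the length of the gene. In total, 49911689 UMIs were counted in 1783 mock-treated cells, compared with 59046165 in 1751 DAC-treated cells. The median cell had 27899 UMIs in the former and 35340 in the latter. Since each condition had 1 library and cells of a library are not replicates, no p-value can be given, and a difference between libraries cannot be told apart from a difference between conditions. Intervals are exact 95% intervals (Poisson for UMI sums, Clopper-Pearson for shares of cells, and conditional binomial for ratios) and cover counting error only. Both libraries shared 12 barcodes, which held 1 UMI of the 10 genes in the mock-treated library and 99 in the DAC-treated library. Epithelial markers of the cell line (*EPCAM*, *KRT8*, *KRT18*, *CDH1*, *CDX1*, *CDX2*, *VIL1*, and *KRT20*, summed) were detected in 98.2% of mock-treated and 99.5% of DAC-treated cells, mostly through *KRT8* and *KRT18*. *EPCAM* had 17419 and 13099 UMIs and *KRT20* had 27 and 599 in the mock-treated and DAC-treated libraries. Of the markers of other cell types, *PTPRC* (leukocytes) and *PECAM1* (endothelium) had no UMI in the former and 16 and 46 in the latter, whereas *CD68* (321 and 525) and the fibroblast marker *COL1A1* (533 and 1112) were present in both.

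All 10 genes lie on the X chromosome, in 3 groups (hg38, GENCODE release 44). *PAGE1* (ENSG00000068985; X, 49687447 to 49695984, minus strand) and *PAGE4* (ENSG00000101951; X, 49829260 to 49834264, plus strand) are 133 kb apart. *XAGE2* (ENSG00000155622; 52369021 to 52375680, plus strand), *XAGE1A* (ENSG00000204379; 52495808 to 52500812, plus strand), *XAGE1B* (ENSG00000204382; 52512077 to 52520803, minus strand), *XAGE5* (ENSG00000171405; 52811287 to 52818301, plus strand), and *XAGE3* (ENSG00000171402; 52862525 to 52868083, minus strand) form the second group. *PAGE2B* (ENSG00000238269; 55075030 to 55078909), *PAGE2* (ENSG00000234068; 55089018 to 55092842), and *PAGE5* (ENSG00000158639; 55220346 to 55224108) form the third, all on the plus strand. *PAGE2B* and *PAGE2* are 10.1 kb apart, and *PAGE2* and *PAGE5* are 127.5 kb apart. None of the 10 genes overlaps another gene in this release.

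The 250 bases upstream of the start site were taken from RefSeq (GRCh38.p14), which held 1 to 3 windows for each of the 10 genes. The first listed window of each gene was used. The windows of 6 genes are shown because they belong to the genes with the highest UMI counts after DAC treatment (*PAGE1*, *PAGE2*, *PAGE2B*, and *PAGE5*), to the gene with the highest count in mock-treated cells (*PAGE4*), and to the *XAGE* gene with the highest count (*XAGE3*). Capitals mark every match to the letters GCGCATG on either strand, and the palindrome GCGCATGCGC holds a match on both strands. The sequences run 5′ to 3′ on the strand of the gene.
PAGE1 (chrX:49695985-49696234, minus strand): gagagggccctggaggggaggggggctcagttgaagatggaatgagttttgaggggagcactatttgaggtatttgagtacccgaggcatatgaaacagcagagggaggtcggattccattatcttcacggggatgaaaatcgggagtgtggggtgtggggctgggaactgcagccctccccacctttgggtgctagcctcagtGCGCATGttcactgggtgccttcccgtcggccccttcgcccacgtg
PAGE2 (chrX:55088768-55089017, plus strand): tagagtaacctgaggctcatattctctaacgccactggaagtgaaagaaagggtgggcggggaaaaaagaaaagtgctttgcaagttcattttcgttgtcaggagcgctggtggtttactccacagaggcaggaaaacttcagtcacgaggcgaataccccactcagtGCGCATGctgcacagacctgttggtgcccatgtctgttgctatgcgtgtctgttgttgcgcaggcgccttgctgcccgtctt
PAGE2B (chrX:55074780-55075029, plus strand): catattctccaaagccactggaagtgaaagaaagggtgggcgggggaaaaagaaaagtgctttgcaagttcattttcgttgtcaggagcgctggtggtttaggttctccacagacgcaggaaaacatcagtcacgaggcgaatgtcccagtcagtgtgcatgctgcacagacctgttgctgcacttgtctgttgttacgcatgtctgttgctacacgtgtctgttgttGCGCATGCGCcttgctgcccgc
PAGE5 (chrX:55220096-55220345, plus strand): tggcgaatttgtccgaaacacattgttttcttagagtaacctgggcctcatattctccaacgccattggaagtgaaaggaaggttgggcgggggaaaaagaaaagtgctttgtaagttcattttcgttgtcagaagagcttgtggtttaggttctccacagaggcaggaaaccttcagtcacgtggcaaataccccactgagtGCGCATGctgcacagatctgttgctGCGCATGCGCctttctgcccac
PAGE4 (chrX:49829010-49829259, plus strand): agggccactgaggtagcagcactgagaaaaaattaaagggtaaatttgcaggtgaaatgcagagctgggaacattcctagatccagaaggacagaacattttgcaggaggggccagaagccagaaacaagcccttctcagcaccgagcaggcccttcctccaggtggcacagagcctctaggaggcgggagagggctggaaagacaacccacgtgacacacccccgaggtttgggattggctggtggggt
XAGE3 (chrX:52868084-52868333, minus strand): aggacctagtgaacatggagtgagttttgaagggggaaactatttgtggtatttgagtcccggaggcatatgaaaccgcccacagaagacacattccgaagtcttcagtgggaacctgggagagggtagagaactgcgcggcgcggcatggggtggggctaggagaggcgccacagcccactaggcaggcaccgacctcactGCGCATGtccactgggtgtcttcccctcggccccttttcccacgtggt

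The motif was chosen after the sequences were seen. It was present in the windows of 8 of the 10 genes, and the exceptions were *PAGE4* and *XAGE2*. Among 27305 RefSeq promoters of the same length, 3.96% held it on either strand. A count of 2 matches or more was present in 5 of the 10 genes and in 1.36% of all promoters. The palindrome, which counts as 2 overlapping matches, was present in *PAGE2B* and *PAGE5* and in 1.13% of all promoters. The match nearest to the 5′ end of the window started at position -46 from the start site in *PAGE1*, -82 in *PAGE2*, -22 in *PAGE2B*, -47 in *PAGE5*, and -48 in *XAGE3*. Such a match is a description of the letters in the window, and binding of a protein to it was not tested. Some of these windows resemble each other over their whole length, so their matches are not independent. The windows of *PAGE2* and *PAGE2B* were 80.4% identical over their alignment, those of *PAGE2* and *PAGE5* 69.1%, and those of *XAGE3* and *XAGE5* 66.0%. The windows of *XAGE1A* and *XAGE1B* were identical over all 250 bases. The window of *PAGE1* was 64.9% identical to that of *XAGE3*, 59.9% to that of *XAGE5*, and 50.2% to that of *PAGE2*. These 10 windows held 4 to 14 CpG sites, with 4 in *PAGE4*, 9 in *PAGE1* and *PAGE5*, 11 in *PAGE2* and *PAGE2B*, and 14 in *XAGE1A* and *XAGE1B*. In the further windows, of other start sites, *XAGE1A* had 9 and *XAGE1B* 8 CpG sites with the motif, whereas *XAGE3* had 4 and *XAGE5* had 5 CpG sites without it, and *PAGE4* again had 4 without it. The median over all promoters was 11, with quartiles of 3 and 23.

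Some of the 10 genes cannot be fully separated by 3′ reads. Of the 90-base stretches in the last 500 bases of their transcripts, 100% of those of *XAGE1A* and 83.6% of those of *XAGE1B* were present in the other gene, and the UMI counts of both are therefore uncertain. Of the stretches of *PAGE2* and *PAGE2B*, 25.4% and 30.9% were shared between them. *PAGE5* shared 1.45% with other annotated genes, and the other 5 genes shared none.

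The *PAGE* and *XAGE* genes were nearly silent in mock-treated cells. Their 10 UMI counts summed to 29 in the mock-treated library and to 11517 in the DAC-treated library, or 0.581 and 195 CPM (UMI counts scaled to the same total in each library). The ratio of the summed CPM, DAC-treated over mock-treated, was 336 (234 to 501), and 139 from the mean of per-cell CPM. *PAGE1*, *PAGE2*, *PAGE2B*, and *PAGE5* contributed 96.3% of the UMIs of the 10 genes in DAC-treated cells, and the 5 *XAGE* genes together contributed 2.74%.

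Among the PAGE genes, *PAGE1* had 1 UMI in the mock-treated library and 3965 UMIs (3843 to 4090) in the DAC-treated library, the highest count of the 10 genes. *PAGE2B* had 5 UMIs in the former and 2831 (2728 to 2937) in the latter. *PAGE5* was without a UMI in the mock-treated library and reached 2256 (2164 to 2351) after DAC treatment. The count of *PAGE2* was 1 UMI without and 2034 (1947 to 2124) with DAC treatment. The intervals did not overlap, but they treat every UMI as independent, whereas the 33 to 41 cells with the most UMIs held 35.1% to 40.9% of the UMIs of these genes, and reads shared by *PAGE2* and *PAGE2B* could bear on their places. With 0 to 5 UMIs in mock-treated cells, the ratios were poorly bounded from above. They were 3352 (601 to 132415) for *PAGE1*, 1719 (308 to 67943) for *PAGE2*, and 479 (205 to 1475) for *PAGE2B*, and *PAGE5* was at least 636-fold higher after DAC treatment, against a limit of 3 UMIs over the mock-treated library. The ratio of *PAGE1* rests on 1 UMI in a mock-treated cell of 547 UMIs whose barcode was present in both libraries. It was 65.9 from the mean of per-cell CPM, and without shared barcodes or without cells under 10000 UMIs it was a lower limit, of 1095 and 1083.

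*PAGE4* stood apart from the other PAGE genes. It had the highest count of the 10 genes in mock-treated cells, 21 UMIs in 21 cells (1.18%, 0.731 to 1.79), and 115 UMIs (94.9 to 138) in DAC-treated cells. Its CPM was 0.421 and 1.95, a ratio of 4.63 (2.89 to 7.76), the lowest ratio among the genes with a UMI in mock-treated cells. The interval of this ratio did not overlap those of *PAGE1*, *PAGE2*, and *PAGE2B*.

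The *XAGE* genes had 1 UMI in mock-treated cells, of *XAGE3*, and 316 UMIs in DAC-treated cells. *XAGE3* was the most abundant of them in DAC-treated cells, with 155 UMIs (132 to 181) and a ratio of 131 (23.2 to 5208), or 288 from the mean of per-cell CPM. *XAGE2* had 64 UMIs (49.3 to 81.7) and *XAGE5* had 57 (43.2 to 73.9), 2 counts that did not differ beyond counting error. Only 22 UMIs (13.8 to 33.3) were assigned to *XAGE1B* and 18 (10.7 to 28.4) to *XAGE1A*, which also did not differ beyond counting error. Compared with the limit of 3 UMIs in mock-treated cells, *XAGE2* was at least 18.0-fold, *XAGE5* at least 16.1-fold, *XAGE1B* at least 6.20-fold, and *XAGE1A* at least 5.07-fold higher after DAC treatment. Without cells over 20% mitochondrial UMIs, these limits were 10.7, 10.7, 4.06, and 2.96. The mean of per-cell CPM, set against the same 3 UMIs over the whole mock-treated library, gave 38.6, 13.2, 4.28, and 22.0. These last values set a per-cell mean against a pooled limit and are not lower limits. The limits from summed UMIs take the DAC-treated count as it is. With its counting error they start at 3.88 for *XAGE1B* and 3.01 for *XAGE1A*, and against the exact two-sided upper limit of a count of 0 they are 5.04 and 4.12. *PAGE3*, a relative downstream of *PAGE5* that is not among the 10 genes, had no UMI without and 18 UMIs with DAC treatment.

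**Figure D1:**
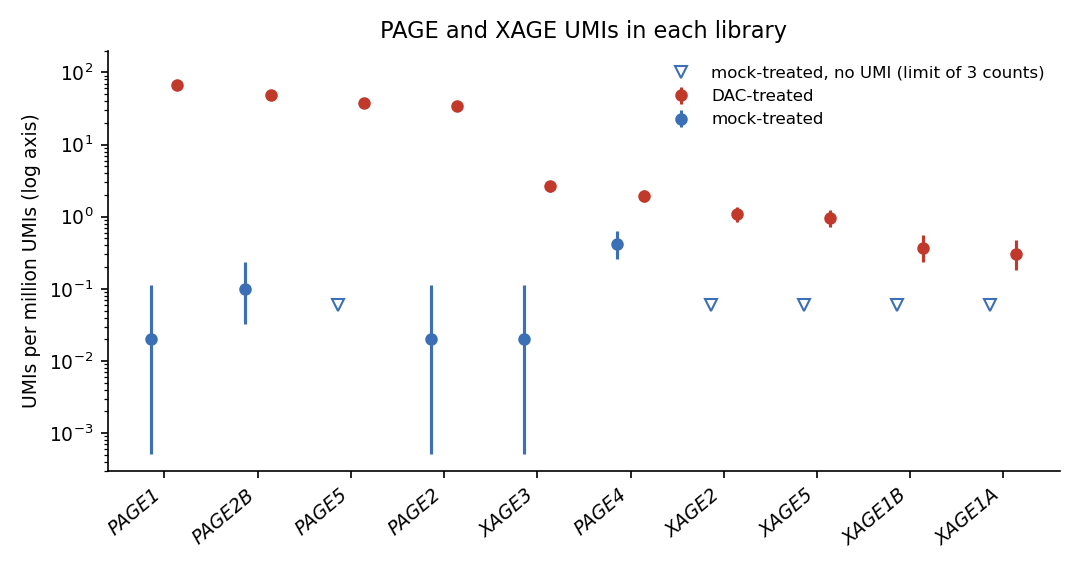
CPM of each gene (UMI counts scaled to the total of the library, log axis) in the mock-treated (blue) and DAC-treated (red) libraries, 1 library each. Bars are exact 95% Poisson intervals, and open triangles mark the limit of 3 UMIs for the 5 genes with no UMI in mock-treated cells. *PAGE1*, *PAGE2B*, *PAGE5*, and *PAGE2* lie between 34.4 and 67.2 CPM in DAC-treated cells, and the other 6 genes lie between 0.305 and 2.63 CPM.

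All 10 genes had 10 UMIs or more in the DAC-treated library and a CPM ratio, or lower limit of it, of 4 or more, with 9 left without cells over 20% mitochondrial UMIs. The same was true of 13.8% of the 18461 genes that reached 10 UMIs in at least 1 library. A ratio or limit of 2 or more was found for all 10 genes and 25.8% of those genes, and 10 or more for 7 of the 10 and 7.15%. Since the 10 genes were chosen with these values known, nothing is read from these counts. The median log2 ratio of the 10 genes, taking the limit for genes without a UMI in the control, was 5.60. The lowest and highest values of the 10 genes were 2.21 and 11.71, and the median over 18456 genes was 0.33. In 8 of the 10 genes, and in 10.9% of the 25429 genes with a UMI, at least 1 DAC-treated cell and no mock-treated cell had 3 UMIs or more, the level at which the study calls a gene upregulated in a cell. The exceptions were *XAGE1A* and *XAGE1B*, which had at most 1 UMI in any cell.

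At the single-cell level, at least 1 UMI of the 10 genes was present in 798 (45.6%, 43.2 to 47.9) of the DAC-treated cells and in 29 (1.63%, 1.09 to 2.33) of the mock-treated cells. Every one of these mock-treated cells had exactly 1 UMI. In DAC-treated cells, the positive cells had a median of 4 UMIs of the 10 genes, 289 cells had 10 or more, and the highest cell had 149. The 10 genes accounted for at most 0.455% of the UMIs of a DAC-treated cell. At least 3 UMIs of the same gene were present in 407 DAC-treated cells and in no mock-treated cell, and a count of 0 mock-treated cells allows a share of up to 0.168% at 3 counts, or 0.207% by the exact interval.

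*PAGE1* was detected in 414 DAC-treated cells (23.6%, 21.7 to 25.7) and had 3 UMIs or more in 228 (13.0%). *PAGE2B* was detected in 394 cells (22.5%, 20.6 to 24.5) and had 3 UMIs or more in 227. For *PAGE5*, 352 cells (20.1%, 18.2 to 22.1) had a UMI and 199 had 3 or more. For *PAGE2*, the numbers were 334 (19.1%, 17.3 to 21.0) and 187. Intervals of neighboring genes in this order overlapped, whereas those of *PAGE1* and *PAGE2* did not. The next genes were *PAGE4* with 96 cells (5.48%, 4.46 to 6.65) and *XAGE3* with 76 cells (4.34%, 3.43 to 5.40), whose intervals overlapped. *XAGE2*, *XAGE5*, *XAGE1B*, and *XAGE1A* were detected in 46, 40, 22, and 18 cells.

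Positive cells differed widely in level. A *PAGE1*-positive cell had a mean of 9.58 UMIs and a median of 3.5, 35.7% of these cells had only 1 UMI, 137 cells had 10 UMIs or more, and the highest cell had 65. The 41 cells with the most *PAGE1* held 40.9% of its UMIs. The means of *PAGE2B*, *PAGE5*, and *PAGE2* were 7.19, 6.41, and 6.09 UMIs per positive cell, with highest cells of 47, 47, and 33 UMIs. *PAGE4* had a mean of 1.20 UMIs per positive cell, and 86.5% of its positive cells had 1 UMI. *XAGE3* was detected in fewer cells than *PAGE4* but had a mean of 2.04 UMIs per positive cell and a highest cell of 10 UMIs, compared with 4 UMIs for *PAGE4*.

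The number of cells without a UMI was compared with the number that would have none if every DAC-treated cell had the library's share of the transcript. For *PAGE1*, 1337 cells had no UMI, against 523 under an even share. The numbers were 1357 and 631 for *PAGE2B*, 1399 and 719 for *PAGE5*, and 1417 and 762 for *PAGE2*. An even share of *PAGE1* would leave 11.2 cells with 10 UMIs or more, against the 137 cells found. In contrast, 1655 cells had no UMI of *PAGE4*, against 1642 under an even share, but 13 cells had 2 UMIs or more of it, against 5.43, and 5 cells had 3 or more, against 0.208. For *XAGE3*, 1675 cells had no UMI, against 1606, and 14 cells had 3 or more, against 0.494.

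**Figure D2:**
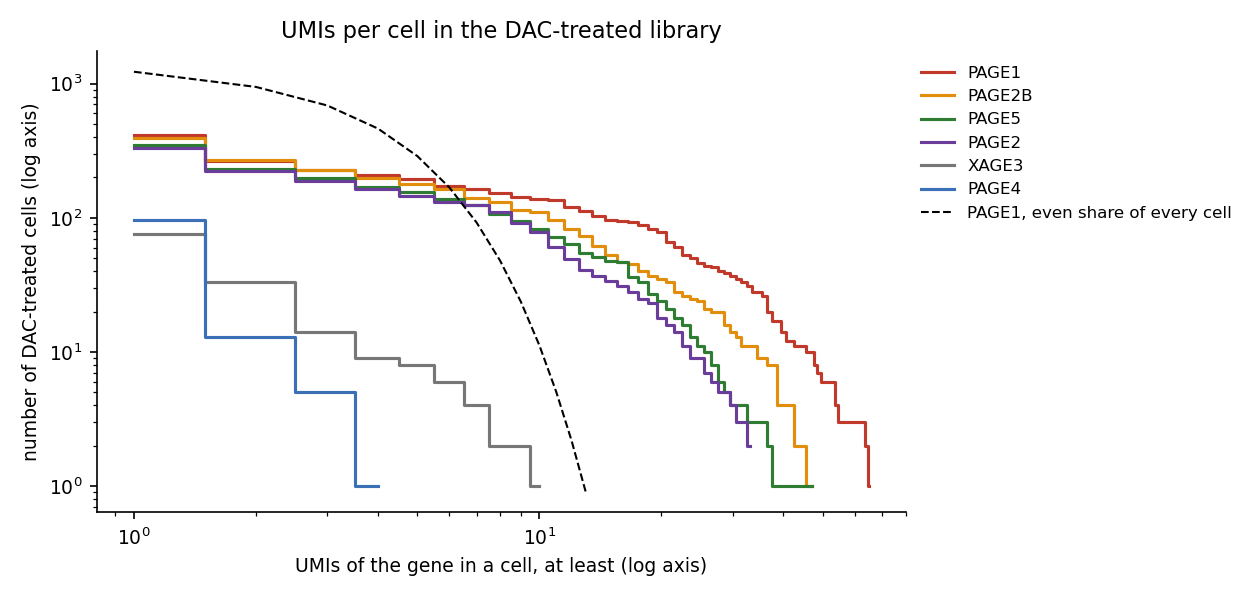
Number of DAC-treated cells (log axis) with at least the given number of UMIs of a gene (log axis), for the 6 most abundant genes. The dashed line is the number expected for *PAGE1* if every cell had the library's share of the transcript; it falls from 1228 cells at 1 UMI to 11.2 at 10 UMIs, whereas the *PAGE1* line falls from 414 to 137.

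Detection moved with the depth of the cell. In DAC-treated cells ordered by total UMIs and split into 3 equal groups, at least 1 UMI of the 10 genes was present in 25.3% of the cells with the fewest UMIs, 48.5% of the middle group, and 63.0% of the cells with the most UMIs. *PAGE1* was detected in 9.76%, 25.2%, and 36.0% and *PAGE5* in 8.39%, 21.9%, and 30.0% of these groups. The CPM of the 10 genes also was higher with depth, at 134, 175, and 211. When each cell was thinned to 10000 UMIs, leaving out 458 DAC-treated and 395 mock-treated cells with fewer, the expected share of positive cells was 36.3% in DAC-treated and 0.538% in mock-treated cells. *PAGE1* was then at 18.5%, *PAGE2B* at 17.6%, *PAGE5* at 15.3%, and *PAGE2* at 14.5% of DAC-treated cells. *XAGE3* was at 2.09% and *PAGE4* at 1.83%, the reverse of their order at full depth, where their intervals overlapped. The thinned shares have no interval, so neither order is settled. At equal depth, *PAGE4* was expected in 0.418% of mock-treated cells.

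Mitochondrial genes took more than 50% of the UMIs in 319 DAC-treated and 311 mock-treated cells. In such DAC-treated cells, the 10 genes had a CPM of 33.7 and a mean of 1.61 UMIs per positive cell, and 26.3% of the cells were positive. In the other DAC-treated cells, the values were 207 CPM, 15.9 UMIs, and 49.9%. RNA released into the droplet fluid can give single UMIs in cells that do not express a gene, and no other cell type in the library is free of these transcripts, so the part of such RNA in the cells with 1 UMI was not tested.

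**Figure D3:**
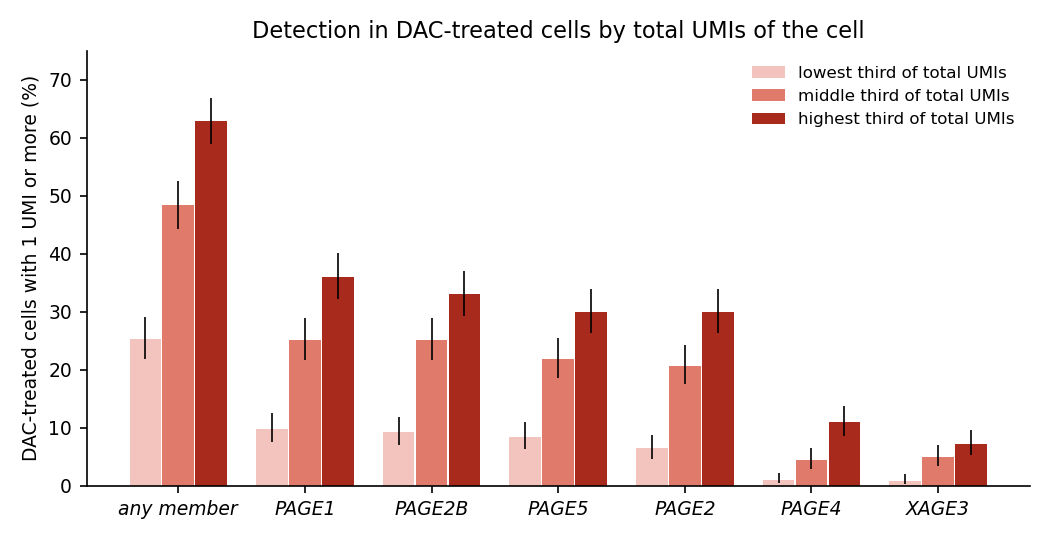
Share of DAC-treated cells (%) with 1 UMI or more of any of the 10 genes and of the 6 most abundant genes, in 3 equal groups of cells ordered by total UMIs; bars are exact 95% Clopper-Pearson intervals. The share with any of the 10 genes is 25.3%, 48.5%, and 63.0% from the lowest to the highest group, and every gene shown has its highest share in the group with the most UMIs.

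The 10 genes were detected in the same cells more often than their shares and the depth of the cells would give. For every pair, the number of DAC-treated cells with both genes was compared with the number expected if the genes were detected independently within each of 10 groups of cells of like total UMIs. The ratio of observed to expected was above 1 in all 45 pairs (1.35 to 8.61, median 2.45), and its counting interval was above 1 in 37 pairs. Among the most abundant genes, *PAGE2* and *PAGE2B* were both detected in 211 cells, against 91.2 expected, a ratio of 2.31 (2.01 to 2.65). *PAGE2B* and *PAGE5* shared 205 cells, against 95.4 expected (2.15, 1.87 to 2.47). *PAGE1* lies 5.38 Mb from *PAGE2B*, and both were detected in 212 cells, against 111 expected (1.91, 1.66 to 2.18). Among 2648 other genes that never exceeded 2 UMIs in a mock-treated cell and were detected in 50 DAC-treated cells or more, the median ratio with *PAGE1* was 1.09 and the 95th percentile was 1.48. The corresponding values for *PAGE2B* were 1.11 and 1.54. Reads shared by *PAGE2* and *PAGE2B* make the assignment between these genes uncertain, and their part in the value of this pair was not tested.

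When only cells with 3 UMIs or more were counted as positive, the ratio was 3.69 for *PAGE2* and *PAGE2B* (131 cells, 35.5 expected), 3.05 for *PAGE2B* and *PAGE5*, and 3.11 for *PAGE1* and *PAGE2B*. The *XAGE* genes, with far fewer cells, were mostly found in cells with *PAGE* transcripts. Of the 76 *XAGE3*-positive cells, 59 (77.6%) also had *PAGE1*, against 22.4 cells expected (2.64, 2.01 to 3.40). Of the 40 *XAGE5*-positive cells, 32 had *PAGE2B*, against 11.6 expected. *XAGE3* and *XAGE5* shared 13 cells, against 2.34 expected (5.56, 2.96 to 9.51). *PAGE4* was detected with *PAGE1* in 62 cells, against 30.3 expected (2.05, 1.57 to 2.62). The highest ratio, 8.61 (1.78 to 25.2), was that of *XAGE1A* and *XAGE1B*, rests on 3 cells, and concerns 2 genes with shared sequence. The 8 pairs whose intervals included 1 all contained *XAGE1A* or *XAGE1B*.

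Accordingly, DAC-treated cells had either none or many of the 10 genes more often than independent detection would give. None was detected in 953 cells, against 656 expected, and exactly 1 gene was detected in 369, against 597 expected. Fewer cells than expected had 2 genes (160, against 339) or 3 genes (106, against 126), and 429 cells had 2 or more, against 498. As many as 4 or more genes were detected in 163 cells, against 34.0 expected, and 5 or more in 85 cells, against 4.65. The highest number was 7 genes, in 9 cells. In mock-treated cells, no cell had more than 1 of the 10 genes. Barcodes with more than 1 cell were not looked for, and their part in these numbers was not tested.

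**Figure D4:**
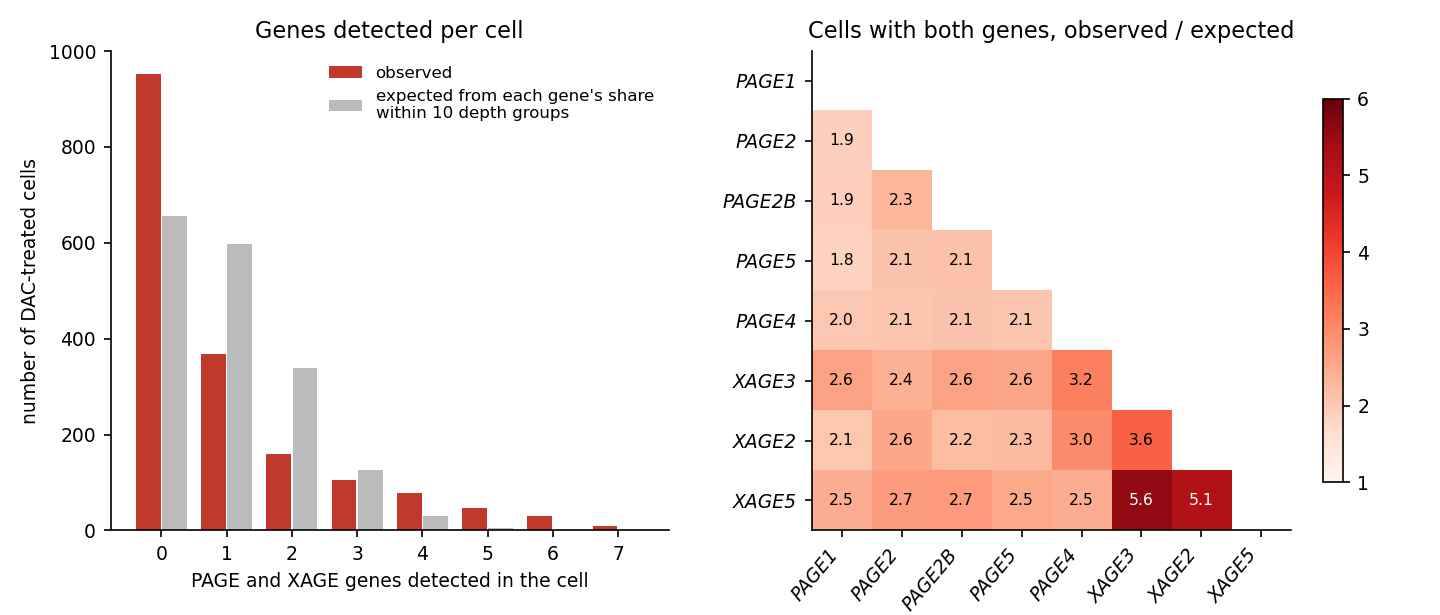
Left, number of DAC-treated cells by the number of *PAGE* and *XAGE* genes detected, observed (red) and expected from independent detection within 10 depth groups (grey). Right, observed over expected number of cells with both genes for pairs of 8 genes (*XAGE1A* and *XAGE1B*, with 18 and 22 cells, are not drawn); all ratios drawn are above 1, and the highest is 5.56 for *XAGE3* and *XAGE5*.

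*PAGE2B*, *PAGE2*, and *PAGE5* are neighbors on the chromosome, but a cell did not necessarily have all of them. Of the 628 DAC-treated cells positive for any of these 3 genes, 314 had exactly 1 of them, 176 had 2, and 138 had all 3, against 24.5 expected with all 3. In raw counts, without depth groups, positive cells with another of the 3 genes also had more UMIs of the gene. *PAGE2B* had a median of 6 UMIs (mean 9.18) in its positive cells with *PAGE2* or *PAGE5* and of 1 UMI (mean 2.40) in the 116 cells without them. For *PAGE2*, the median was 6 UMIs with and 1 UMI without another of the 3 genes, and for *PAGE5* the medians were the same. UMIs per positive DAC-treated cell were also higher in deeper cells. For *PAGE2B*, the mean was 1.96, 6.01, and 9.54 UMIs from the lowest to the highest of 3 equal groups ordered by total UMIs. The part of depth in the values with and without another gene was not tested. With *PAGE1* added, 764 cells had any of the 4 genes and 106 had all 4, against 8.06 expected.

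The closest relatives of the 10 genes, the *GAGE* genes, lie next to *PAGE1*, with *GAGE1* 78909 bases away. The 13 *GAGE* genes in the tables summed to 7 UMIs in the mock-treated library and 12087 in the DAC-treated library, led by *GAGE2A* (7 and 6287), *GAGE12H* (0 and 4654), and *GAGE1* (0 and 518). Reads of *GAGE* copies can be split or lost, since the genes are nearly identical. *GAGE* was detected in 64.7% of the DAC-treated cells with a *PAGE* or *XAGE* UMI and in 25.6% of those without, an observed over expected ratio of 1.33 (1.22 to 1.45) within depth groups. This ratio is between any *GAGE* and any of the 10 genes and cannot be set against those of single genes. For single genes, in the 1293 DAC-treated cells with 10000 UMIs or more, *PAGE1* and *GAGE12H* were both detected in 233 cells, against 132 expected. The numbers were 261 and 160 for *PAGE1* and *GAGE2A*, 128 and 64.6 for *PAGE1* and *GAGE1*, and 126 and 55.7 for *PAGE2* and *GAGE12J*. These *GAGE* genes were among the 5 genes most correlated with the *PAGE* gene over the same cells. An excess is thus built into their choice.

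The other X-linked cancer-testis families were compared in the same way. The ratio was 1.53 (1.10 to 2.09) for *SPANX*, whose interval included 1 without cells over 20% mitochondrial UMIs (1.57, 0.946 to 2.45), 1.52 (1.34 to 1.71) for *SSX*, 1.41 (1.19 to 1.65) for *MAGEC*, 1.40 (1.21 to 1.62) for *CT45*, 1.27 (1.12 to 1.44) for *CTAG*, 1.19 (1.07 to 1.33) for *VCX*, and 1.17 (1.06 to 1.30) for *CSAG*. *SSX* was detected in 34.2% of the cells with a *PAGE* or *XAGE* UMI and in 6.19% of the others. *MAGEA* and *MAGEB* had ratios of 1.03 (0.955 to 1.11) and 1.04 (0.961 to 1.12). Of the 798 cells with a *PAGE* or *XAGE* UMI, 719 had *MAGEA* and 682 had *MAGEB*, against 699 and 657 expected. The number cannot exceed 798, which caps both ratios, but neither was at the cap. Among the same 2648 genes, taken singly, the median ratio with the 10 genes was 1.06, with quartiles of 0.993 and 1.13 and a 95th percentile of 1.27. Summed over the family, *MAGEA* and *MAGEB* had 2790 and 3449 UMIs in mock-treated cells, unlike the *PAGE* and *XAGE* genes. Of these UMIs, *MAGEA3* held 2776 and *MAGEB2* 3317. Among genes with 10 UMIs or more in either library, 7 of 11 *MAGEA* and 3 of 6 *MAGEB* genes had none in mock-treated cells. *MAGEA3* was detected in 1202 of the 1396 *MAGEA*-positive DAC-treated cells, and *MAGEB2* in 1203 of the 1245 *MAGEB*-positive ones. These single genes therefore weigh heavily in both family ratios.

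**Figure D5:**
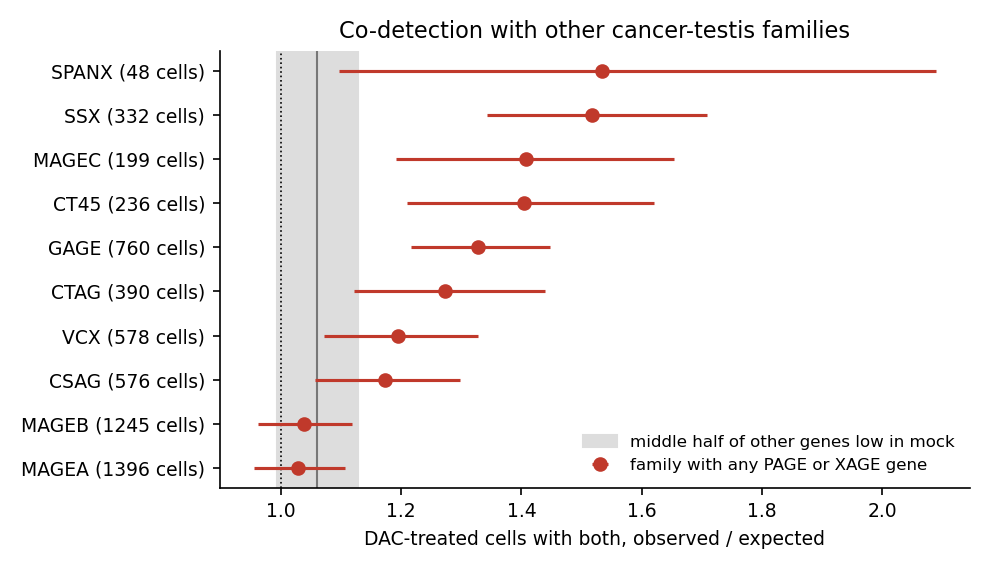
Observed over expected number of DAC-treated cells with a family and with any of the 10 *PAGE* and *XAGE* genes, within 10 depth groups; the number of cells positive for the family is in parentheses and bars are exact 95% Poisson intervals. The grey band spans the quartiles (0.993 to 1.13) and the grey line the median (1.06) over 2648 single genes low in mock-treated cells; the points of 8 families lie to the right of the band, the intervals of *SPANX*, *CTAG*, *VCX*, and *CSAG* reach into it, and *MAGEA* and *MAGEB* lie within it, and families of several genes are not directly comparable with single genes.

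By the correlation of depth-scaled counts over the 1293 DAC-treated cells with 10000 UMIs or more, the genes most like the summed 10 genes were *GAGE12H* (Pearson's r = 0.617), *GAGE2A* (0.577), *VCX3A* (0.495), *VCX3B* (0.488), and *GAGE1* (0.465), among 12450 genes with a median of 0.011 and a 99th percentile of 0.218. Among the 10 genes themselves, r was 0.597 for *PAGE2* and *PAGE2B*, 0.548 for *PAGE2B* and *PAGE5*, and 0.520 for *PAGE1* and *PAGE2B*. For *PAGE1*, r was higher with *GAGE12H* (0.597) and *GAGE2A* (0.548) than with *PAGE2B*. These are correlations across cells of 1 library, which share depth and preparation, and are given without a p-value.

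Germ cell markers outside the cancer-testis families also had more UMIs in the DAC-treated library. Summed over *DDX4*, *DAZL*, *SYCP3*, *STRA8*, and *PRM1*, they had 0.481 CPM in mock-treated and 48.8 CPM in DAC-treated cells, and 4 of the 5 had a ratio or limit of 4 or more, where 13.8% of all genes with 10 UMIs or more did. *PRM1*, a gene of late spermatids, had no UMI in either library. Their part in the values of the *PAGE* and *XAGE* genes was not tested.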

How the data were processed

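Reads were aligned to hg38 by the authors with Cell Ranger 3.0.2, who deposited UMI counts, whole numbers without normalization, for 33538 genes in every cell of 2 libraries (mock-treated and DAC-treated HCT116 cells). The annotation release and any filter on cells are not given in the sources used here. All deposited cells were used, and no doublet caller was run. A barcode with more than 1 cell would have more genes detected together, and the part of such barcodes was not tested.

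For each gene, the UMIs of all cells were added up and divided by the total of the library (CPM). A gene at 0 in mock-treated cells was set against 3 counts over the library. Shares at equal depth are expectations of drawing 10000 or 1000 UMIs from each cell without replacement, with shallower cells left out. Depth of both libraries is given with the samples above. Computations used Python 3.11.15, numpy 2.4.6, scipy 1.17.1, pandas 2.3.3, and matplotlib 3.10.9, and were tested on simulated data. The 10 genes, the families, and the markers were chosen with earlier results of these data known. All 10 genes were named, as were the 5 genes most correlated with their sum over cells, among genes with 100 UMIs or more. Up to 3 genes with the most UMIs in DAC-treated cells of each list were also named. Some further genes, such as *PTPRC*, *KRT20*, and *GAGE12J*, were named outside these rules. Alternatives were median-of-ratios scaling, the mean of per-cell CPM, filters on total UMIs, mitochondrial UMIs, and shared barcodes, other UMI limits, folds, and minimums, other numbers of depth groups, and near-identical genes counted as 1. With 1 library per condition, no test was made.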

Additional observations from a re-analysis of the deposited data

How the results depend on the processing

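With median-of-ratios scaling over 12301 genes, every ratio was lower by a factor of 1.13 (0.18 on the log2 scale), and the ratio of *PAGE4* was 4.08. The ratio of the summed genes was 139 from the mean of per-cell CPM, against 336. This setting gave 65.9 for *PAGE1*, 2905 for *PAGE2*, and 288 for *XAGE3*. For *XAGE1A* and *XAGE2* it gave 22.0 and 38.6 against a pooled limit of 3 UMIs, and these are not lower limits. The number of genes past 4-fold was 6 with a minimum of 100 UMIs, against 10. The share of DAC-treated cells with any of the 10 genes, 45.6% at 1 UMI, was 26.4% at 2 UMIs, 23.2% at 3 UMIs, 53.3% without cells under 10000 UMIs, and 36.3% and 12.6% with cells thinned to 10000 and 1000 UMIs. Summed over all pairs, co-detection was 2.18 times the expected number, 2.72 without depth groups, and 2.06 with *PAGE2* and *PAGE2B*, and *XAGE1A* and *XAGE1B*, counted as 1 gene each. Without depth groups, co-detection with families was 1.49 for *GAGE*, 1.13 for *MAGEA*, 1.20 for *MAGEB*, 1.80 for *SSX*, 1.73 for *CT45*, and 1.42 for *CSAG*. No value changed direction, and 69 of 70 single-gene ratios stayed at 4 or more; the exception was *XAGE1A*, at least 2.96-fold without cells over 20% mitochondrial UMIs. No paired analysis was possible because each condition had 1 library. With 18 to 22 UMIs, *XAGE1A* and *XAGE1B* were too shallow for statements on levels per cell.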

Other observations

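The other X-linked cancer-testis families differed in how silent they were without DAC treatment. Of the families with at most 2 UMIs in the mock-treated library, *VCX* was led by *VCX3B* (0 UMIs in mock-treated and 7903 in DAC-treated cells), *VCX3A* (1 and 5365), and *VCX* (0 and 679), and *CTAG* by *CTAG2* (0 and 3904), with *CTAG1B* (0 and 4) and *CTAG1A* (0 and 1) nearly undetected. *SSX* was led by *SSX1* (2 and 594), *SSX3* (0 and 300), and *SSX5* (0 and 22), and *CT45* by *CT45A10* (1 and 328), *CT45A1* (0 and 95), and *CT45A5* (0 and 31). *MAGEC2* (0 and 517) and *MAGEC1* (0 and 139) were the detected *MAGEC* genes, and *SPANXB1* (0 and 49), *SPANXD* (0 and 15), and *SPANXN5* (0 and 9) led *SPANX*. In *MAGEA*, *MAGEA4* (0 and 8160) and *MAGEA12* (1 and 1477) stood beside *MAGEA3* (2776 and 5384), and *MAGEB* was led by *MAGEB2* (3317 and 6568), *MAGEB1* (129 and 1005), and *MAGEB6* (0 and 303). *CSAG* was led by *CSAG1* (463 and 1107), *CSAG3* (60 and 44), and *CSAG2* (2 and 4). Among markers of other cell types, fibroblast markers had 533 and 1157 UMIs, nearly all from *COL1A1* (533 and 1112), leukocyte markers 331 and 596, mostly from *CD68* (321 and 525), and endothelial markers 6 and 113, led by *VWF* (6 and 62).

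Protein-coding genes within 500 kb of the 10 genes, by RefSeq intervals, were listed to see what lies between the clusters. Outside the cancer-testis families there were 30, of which 21 had 10 UMIs or more in the higher library. Of these 21, 3 had a CPM ratio or limit of 4 or more in DAC-treated cells, where 13.8% of all genes did, and none was 4-fold lower. The 3 genes were *TRO* (1 UMI in mock-treated and 40 in DAC-treated cells), *MAGEH1* (0 and 56), and *USP51* (0 and 15). Genes active in mock-treated cells lay on either side of a ratio of 1. *APEX2*, near *PAGE2B*, had 784 and 1841 UMIs, a ratio of 1.98 (1.82 to 2.16), and *SYP* had 84 and 187, a ratio of 1.88 (1.45 to 2.46). *MAGED1* had 1096 and 697 UMIs, a ratio of 0.538 (0.488 to 0.592), and *PPP1R3F* had 107 and 51, a ratio of 0.403 (0.283 to 0.567). *USP27X*, 45.2 kb from *PAGE4*, had 211 and 253 UMIs, a ratio of 1.01 (0.841 to 1.22), and *KDM5C*, 308 kb from *XAGE3*, had 720 and 908 UMIs, a ratio of 1.07 (0.966 to 1.18). The RefSeq interval of *PAGE2B* starts farther upstream than that of GENCODE and overlaps *ALAS2*, the erythroid enzyme of heme synthesis. *ALAS2* and *AKAP4*, a sperm gene beyond *PAGE4*, had no UMI in either library.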
